A study of Mus musculus with 2 samples.

Results

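The 10 cadherin genes described here are Cdh2, Cdh4, Cdh6, Cdh7, Cdh8, Cdh10, Cdh11, Cdh12, Cdh13 and Cdh20, adhesion genes of the nervous system. They were chosen by symbol, through the Ensembl identifiers of the gene tables and the GENCODE M21 names. All 10 were matched among 43346 genes. The RNA came from the midbrain of B6NCrl mouse embryos aged 13.5 days, with males and females pooled, and no allele or agent is named in the labels. There is 1 group of 2 libraries, numbered as biological replicates 2 and 1, each made from 10 ng of total RNA longer than 200 nt. Tissue was dissected from healthy embryos, and the RNA is that of all its cell types together. There is no other tissue, age or treatment to set against it, so the questions are how the cadherin RNAs stand to each other, which transcripts carry them and how far the libraries differ.

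Cadherins are calcium-dependent adhesion proteins whose outer repeats bind cadherins on a neighbouring cell. In classical cadherins the inner tail binds beta-catenin and delta-catenins, and alpha-catenin links this complex to actin. Type I cadherins such as N-cadherin (Cdh2) hold the neuroepithelium together at its junctions, while type II cadherins are known for patchy expression in particular nuclei and brain subdivisions. Cdh13 (T-cadherin) is held in the membrane by a GPI anchor and has no inner tail, so it is a cadherin of neural tissue but not a classical one in the strict sense.

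Replicate 2 held 40215359 and replicate 1 held 31436613 expected reads on genes. All 4 midbrain markers were detected, with Otx2 of forebrain and midbrain at 117 and 104 TPM and En1 of midbrain at 10.6 and 7.35 TPM in replicates 2 and 1. Of 5 cerebellar and hindbrain markers 1 was detected, Atoh1 at 1.45 and 1.3 TPM, Pax2 stood at 0.49 and 0.86 TPM, and Hoxa2 was near 0, at 0.05 and 0.13 TPM. TPM, the unit used throughout, is a level per transcript length with the same total in every library when the added spike-in RNAs are included. The libraries differed in markers of neighbouring regions, of the midbrain and its ventral part, and of mesenchyme and meninges. The 4 midbrain markers summed to 195 TPM in replicate 2 and 173 TPM in replicate 1. Summed over 4 cortical markers the libraries held 15.6 TPM in replicate 2 and 3.56 TPM in replicate 1. Over 5 ventral and dopaminergic markers they held 78.6 and 39.9 TPM. Over 4 thalamic and pretectal markers they held 598 and 846 TPM, and over 6 mesenchymal and meningeal markers 339 and 276 TPM. The gene counts were not those of 1 library deposited again (chi-square per degree of freedom 9.52). Libraries are treated as 2 samples because the labels give separate biosamples, and a technical repeat could also exceed counting noise.

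N-cadherin RNA made up nearly as much of the family as the other 9 genes together. Cdh2 stood at 147 TPM in replicate 2 and 155 TPM in replicate 1, a mean of 151 ± 5.52 TPM (SD, n = 2). It took 46.0% and 48.8% of the summed TPM of the 10 genes, which was 321 and 318 TPM. Family here means these 10 genes, and the further cadherins described below are not counted in any of its shares. Its mean TPM was above that of 92.9% of all detected genes. The other type I gene of the 10 was Cdh4, which encodes R-cadherin. It stood at 28.9 TPM in replicate 2 and 30.04 TPM in replicate 1 (mean 29.5 ± 0.778). Cdh2 lay 5.12-fold above Cdh4, with log2 differences of 2.34 in replicate 2 and 2.37 in replicate 1 (limma's moderated test, adjusted p = 6.18e-09). The type I pair took 55.0% of the family TPM in replicate 2 and 58.2% in replicate 1.

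The 7 type II genes among the 10 together took 31.3% and 30.4% of the family TPM. Cdh8 led them with 36.6 TPM in replicate 2 and 37.0 TPM in replicate 1 (mean 36.8 ± 0.255). Cdh11, a cadherin known from mesenchyme as well as from neural tissue, followed with 29.2 and 27.4 TPM (28.3 ± 1.28). Both were thus in the range of Cdh4, and the libraries lay close together for both. Cdh6, known as K-cadherin from kidney, stood at 13.7 TPM in replicate 2 and 11.2 TPM in replicate 1 (12.4 ± 1.80). Cdh10 stood at 10.3 and 10.95 TPM (10.6 ± 0.495), and Cdh7 at 7.95 and 7.78 TPM (7.87 ± 0.120). These levels lie below the median of 16.5 TPM over detected genes.

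Cdh12 and Cdh20 were at the bottom of the family. Cdh12 stood at 1.75 TPM in replicate 2 and 1.54 TPM in replicate 1 (1.65 ± 0.148), from 259 and 171 reads. Cdh20 stood at 0.97 and 0.84 TPM (0.905 ± 0.0919), from 102 and 66 reads. Cdh20 therefore missed a TPM of 1 in both libraries, the level called detected here, by a small margin. With it 9 of 10 cadherins were detected, against 34.3% of all 43346 genes. The mean of Cdh2 was 167 times that of Cdh20.

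The GPI-anchored Cdh13 came next to N-cadherin in the order of levels, at 43.8 TPM in replicate 2 and 36.4 TPM in replicate 1 (40.1 ± 5.23). Its libraries lay farther apart than those of Cdh8. In reads, which are not corrected for length, Cdh4 took a larger share of the family than Cdh13, 14.2% against 9.58% in replicate 2 and 14.9% against 8.52% in replicate 1. The mean transcript length used for scaling was 6076 and 6268 bases for Cdh4 and 2757 and 3009 bases for Cdh13.

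**Figure D1:**
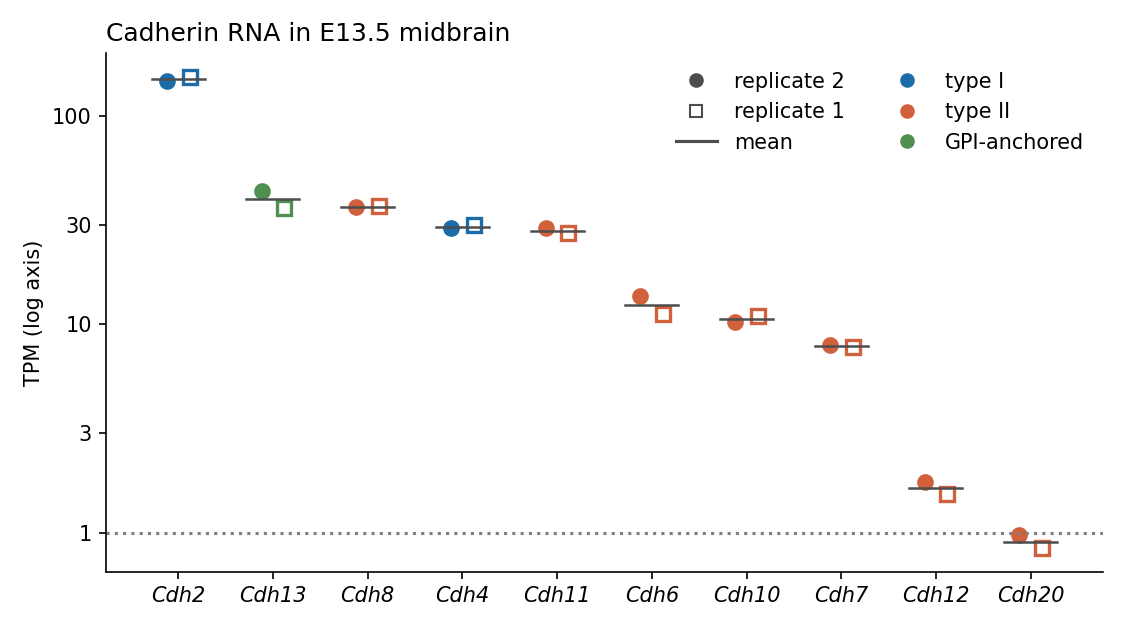
TPM on a log axis for the 10 cadherin genes in the order of their means, with filled circles for replicate 2, open squares for replicate 1 and a bar for the mean; colour gives the class and the dotted line marks 1 TPM. Cdh2 lies above all others at 147 and 155 TPM, a middle group runs from Cdh13 to Cdh7, and Cdh12 and Cdh20 lie near 1 TPM.

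Of the 9 steps between neighbours in this order, 6 passed limma's moderated test at an adjusted p of 0.05. For each step every gene of the table was set against the lower gene within each library, and p-values were adjusted over 17702 genes. The large steps were Cdh2 over Cdh13 (3.79-fold, adjusted p = 5.71e-11), Cdh11 over Cdh6 (2.27-fold, 3.53e-05) and Cdh7 over Cdh12 (4.57-fold, 3.33e-36). Among all genes, 17.0% were called higher than Cdh13, 39.8% higher than Cdh6 and 74.6% higher than Cdh12 by the same rule. Genes called lower come on top of these shares and were not counted, so a pass alone is not a rare outcome. The same holds for the other comparisons of levels between genes. The order of the steps was itself taken from these TPM values. Such very small p-values rest on a spread pooled over all genes. With the spread of both genes added instead, a setting chosen after seeing the data, they were 1.04e-07, 1.62e-05 and 8.89e-06.

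Smaller steps also passed. Cdh8 lay 1.25-fold above Cdh4, with log2 differences of 0.34 in replicate 2 and 0.30 in replicate 1 (adjusted p = 0.000827, 0.000742 to 0.0204 over the settings tried, with 27.5% of genes called higher than Cdh4). Cdh10 lay 1.34-fold above Cdh7, with 0.36 and 0.49 (adjusted p = 0.00083, 9.46e-05 to 0.0140, with 53.0% of genes higher than Cdh7). Cdh12 lay 1.74-fold above Cdh20, with 0.79 and 0.80 (adjusted p = 0.000246, 5.34e-05 to 0.0212, with 81.9% of genes higher than Cdh20).

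The levels of 3 pairs of neighbours did not differ beyond their spread. Cdh13 and Cdh8 changed places between the libraries, with log2 differences of 0.26 in replicate 2 and -0.03 in replicate 1 (adjusted p = 0.177, with 23.3% of genes called higher than Cdh8). Cdh4 and Cdh11 also changed places, with -0.01 and 0.13 (0.606, 27.4% higher than Cdh11). Cdh6 over Cdh10 had log2 differences of 0.42 and 0.03 (0.1001, 47.6% higher than Cdh10). With 2 libraries, a p above 0.05 does not show equal levels, and the p-values cover the spread between these libraries alone. Biases that both libraries share, such as an incomplete transcript model, are outside them.

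The transcript models bear on these levels. The deposited tables use GENCODE M4, where Cdh6 has a model of 2632 bases, and the same transcript has 8167 bases in GENCODE M21. Cdh11 has 4216 bases in M4 and 5647 in M21. Reads from bases outside the M4 model do not enter its count, and their number was not tested. For the other 40 transcripts of the family the lengths were the same in both releases, apart from Cdh12 with 5639 and 5636 bases. Exons of another gene in the tables overlapped those of Cdh8 alone, by 23 bases of Gm15679 on the other strand, which stood at 0.1 and 0.14 TPM. Cdh12 shares 198 exon bases with Gm49685 on its own strand, a gene of M21 that was not analysed here. Reads were assigned to the family with little ambiguity between genes. The deposited posterior SD of the count was 0 for 9 genes and 1.37 and 1.32 reads for Cdh11, of 3212 and 2258.

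The same transcript led in both libraries for all 6 genes with several annotated transcripts, while 4 genes (Cdh6, Cdh11, Cdh12 and Cdh20) have 1 transcript in M4. For Cdh2, Cdh7 and Cdh8 the leader was not the principal coding sequence, the full-length form that the annotation marks as such. Cdh4 gave 94.4% of its TPM in replicate 2 and 97.8% in replicate 1 to its principal form, and Cdh10 gave 88.2% and 88.4%. Cdh13 gave 59.7% and 67.6%, and the rest went to 6 transcripts with no coding sequence. Such shares are model estimates over the annotated transcripts, not direct counts.

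Cdh7 RNA was assigned for the most part to forms annotated without a whole cadherin coding sequence. Its leading transcript, ENSMUST00000146282, has 2 exons, 4776 bases and 76 codons before its stop, against 785 codons in the principal form. It took 42.1% of the gene's TPM in replicate 2 and 47.6% in replicate 1, with 419 and 347 reads (posterior SD 7.39 and 4.79). A transcript annotated as a target of nonsense-mediated decay, a pathway that removes RNAs with an early stop, took 25.2% and 19.5%. ENSMUST00000145188, of 714 bases, took 11.7% and 21.3%, from only 15.3 and 20.5 reads. Its 203 annotated coding bases all match the principal form, with no stop annotated. The 3 transcripts with the principal coding sequence took 13.1% and 7.97%, or 1.04 and 0.62 TPM. In reads, which are not corrected for length, they took 15.9% and 10.2%. The sequences below show where the leading and decay transcripts part from the principal form. All run in the sense of the gene, which lies on chromosome 1 from 109982431 to 110140157 on the plus strand of GRCm38. They begin at coding base 187 of the spliced transcript, counted from the start codon, and are from GENCODE M21. Capitals mark the bases after the stretch shared with the principal form. In the principal form they mark the bases after coding base 210.
Cdh7 principal form: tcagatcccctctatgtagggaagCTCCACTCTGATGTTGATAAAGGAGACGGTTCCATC
Cdh7 leading transcript ENSMUST00000146282: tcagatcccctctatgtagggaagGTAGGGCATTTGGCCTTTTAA
Cdh7 decay transcript ENSMUST00000131464: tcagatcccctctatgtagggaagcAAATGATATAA
The leading transcript leaves the principal form after coding base 210 and ends in a TAA stop. The smaller transcripts ENSMUST00000129923 and ENSMUST00000137092 have coding sequences of the same 228 bases in length and also part at base 210. The decay transcript matches through coding base 211 and also ends in TAA.

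Cdh8 RNA lay mainly in coding forms that end differently from the principal one. The principal form has 799 codons and took 17.8% of the gene's TPM in replicate 2 and 19.9% in replicate 1. The leading transcript ENSMUST00000142129, with 711 codons, took 48.5% and 47.9%, or 17.8 and 17.7 TPM. Another form, ENSMUST00000093249 with 716 codons, took 9.95% and 9.30%, and ENSMUST00000155527 took 9.84% and 11.3%. In cadherins the 3′ end of the coding sequence encodes the inner tail. The lines below show the end of the coding sequence in these forms from coding base 2065, with the stop codon, and for the principal form the bases up to 2148. Cdh8 lies on chromosome 8 from 99024471 to 99416471 on the minus strand of GRCm38. Capitals mark the bases after the shared stretch.
Cdh8 principal form: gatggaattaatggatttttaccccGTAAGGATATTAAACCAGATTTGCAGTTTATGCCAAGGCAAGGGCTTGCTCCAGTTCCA
Cdh8 leading transcript ENSMUST00000142129: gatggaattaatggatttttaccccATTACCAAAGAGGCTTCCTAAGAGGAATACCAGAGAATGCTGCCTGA
Cdh8 transcript ENSMUST00000093249: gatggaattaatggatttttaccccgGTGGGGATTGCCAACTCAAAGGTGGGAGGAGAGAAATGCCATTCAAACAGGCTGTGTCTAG
The leading transcript shares 2089 coding bases from the start and then has 44 of its own, where the principal form runs to 2397. The leading Cdh8 form held 1242 and 927 reads, with posterior SDs of 68.3 and 61.4 reads, and the principal form 783 and 662.

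Cdh2 had a leading transcript that differs at the other end. ENSMUST00000115850 took 61.2% of its TPM in replicate 2 and 58.0% in replicate 1, against 30.7% and 34.8% for the principal form. Its coding sequence has 2547 bases, and at least the last 2546 of them are the same as the end of the 2718 bases of the principal form. The posterior SD of 132 and 143 reads was small beside its 8886 and 6651 reads. A transcript with a retained intron took 8.13% and 7.20%. For Cdh13 a 620-base transcript with no coding sequence, ENSMUST00000151842, held 74.4 reads (posterior SD 21.8) in replicate 2 and 3.97 (11.03) in replicate 1. Because it is short, it gave 5.34 and 0.38 TPM. Without it Cdh13 stood at 38.41 and 35.98 TPM, so most of the difference in TPM between the libraries lay in that transcript. The deposited posterior mean put its share of the gene at 12.3% and 4.11%, against 12.2% and 1.05% in the main estimate.

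Counting the transcripts with the principal coding sequence alone, a setting chosen after seeing the data, changed the order. Cdh2 stood at 45.3 TPM in replicate 2 and 54.0 TPM in replicate 1, and its share of the family was 30.3%. Next came Cdh4 (28.3 ± 1.45), Cdh11 (28.3 ± 1.28) and Cdh13 (25.3 ± 1.08), then Cdh6 (12.4 ± 1.80), Cdh10 (9.36 ± 0.453) and Cdh8 (6.94 ± 0.587). Cdh7 came last with 0.83 ± 0.297 TPM, which is within its spread of the 0.905 ± 0.0919 TPM of Cdh20. Among the steps that passed by gene, 2 orders turned round on this count, with no test made. They were that of Cdh8 and Cdh4 and that of Cdh7 and Cdh12 (1.65 TPM). Cdh6, Cdh11, Cdh12 and Cdh20, with 1 annotated transcript each, keep their whole TPM on this count. Against them a gene with several transcripts could only fall, so these changes of order depend on the annotation. The number of detected members was 8 of 10.

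**Figure D2:**
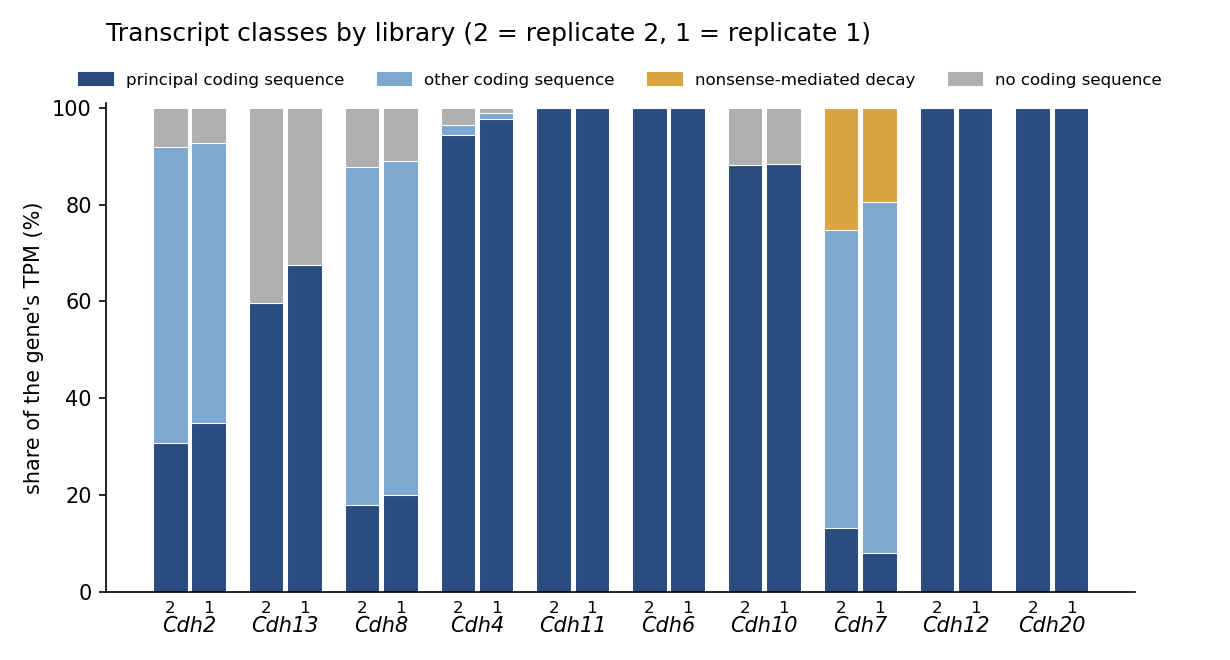
Stacked bars give the share of each gene's TPM (percent) in transcripts with the principal coding sequence, with another coding sequence, annotated for nonsense-mediated decay, or with no coding sequence, with replicate 2 left of replicate 1 for each gene. The principal share is 13.1% and 7.97% for Cdh7 and 17.8% and 19.9% for Cdh8, and 100% for the 4 genes with 1 transcript.

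Differences between the libraries stayed below 1.5-fold for each cadherin RNA. Of the 10 genes, 0 differed at least 2-fold in reads after TMM scaling, against 0.724% of 14366 genes whose counts averaged 50 or more. At 1.5-fold the count was also 0, against 3.31%. With shares this small, 0 of 10 is near what all genes gave and does not set the cadherins apart. A single library per side allows no test. The largest ratio of replicate 2 over replicate 1 was that of Cdh6, at 1.27 (95% counting interval 1.14 to 1.41), followed by Cdh20 at 1.19 (0.869 to 1.66) and Cdh12 at 1.17 (0.963 to 1.43). Cdh13 stood at 1.14 (1.07 to 1.2), Cdh7 at 1.13 (1.02 to 1.26) and Cdh11 at 1.10 (1.04 to 1.16). Cdh2 was 0.969 (0.946 to 0.992), and Cdh4, Cdh8 and Cdh10 lay between 0.955 and 1.01 with intervals that include 1.

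The ratio was above 1 for 7 of 10 cadherins and for 50.9% of the same 14366 genes. The counting interval excluded 1 for 5 of 10 and for 39.3% of these genes. The median log2 ratio was 0.16 over the family and 0.0037 over the 14366 genes, and the median absolute log2 ratio was 0.16 against 0.10. These intervals include counting error alone, since PCR copies of a molecule are not told apart. In such bulk RNA, fewer cells of a type and less RNA per cell cannot be told apart. The median log2 ratio was 0.32 for markers of mesenchyme and meninges (6 of 6 above 0) and 1.898 for cortex. It was also 0.32 for the 4 midbrain markers, each of them above 0. For ventral midbrain it was 1.396 (4 of 5 above 0, with Lmx1a at 11.8 and 16.05 TPM), and for thalamus and pretectum -0.59. The part of these marker sets in the cadherin ratios was not tested.

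**Figure D3:**
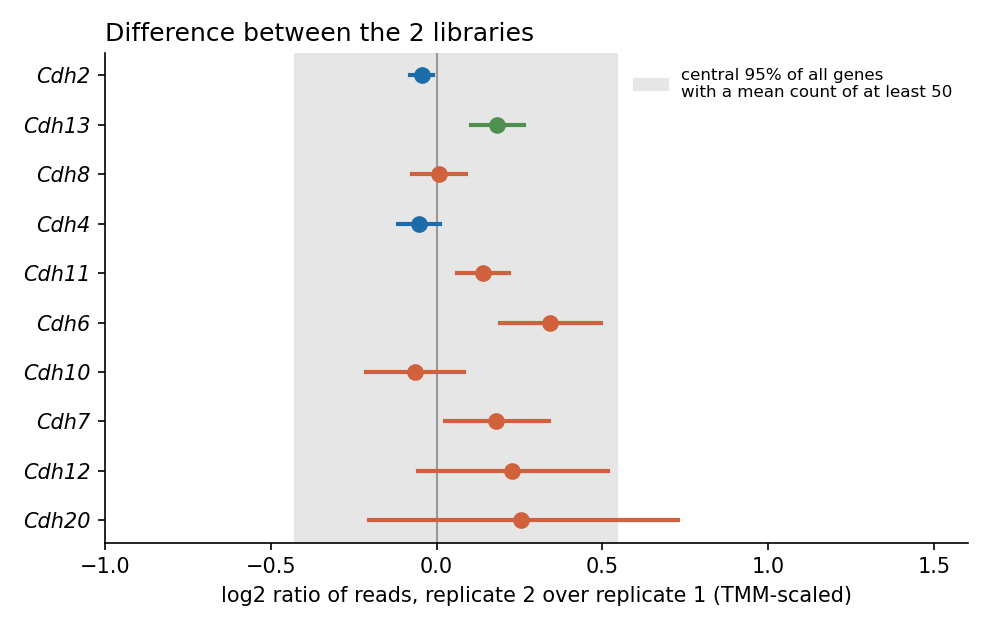
Log2 ratio of TMM-scaled reads, replicate 2 over replicate 1, for each cadherin (points, coloured blue for type I, orange for type II and green for GPI-anchored) with the exact 95% counting interval (lines); the grey band holds the central 95% of 14366 genes, from -0.43 to 0.54. All 10 points lie inside the band, with Cdh6 farthest to the right at 0.34.

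The other cadherins had lower mean TPM than the 5 highest members, while Cdh22, Cdh24 and Cdh5 had higher means than Cdh7, Cdh12 and Cdh20, with no test made. Of 13 further cadherins 7 were detected, against 34.3% of all 43346 genes, with a median of 1.5 TPM over all 13. Cdh22 led with 12.3 TPM in replicate 2 and 8.49 TPM in replicate 1, before Cdh24 (11.03 and 8.94 TPM). The endothelial cadherin Cdh5 stood at 9.85 and 9.97 TPM and Cdh23, a cadherin of hair-cell tip links, at 4.44 and 3.93 TPM. E-cadherin (Cdh1), the main cadherin of epithelia, stood at 2.61 and 3.24 TPM, and Cdh2 lay 50.3-fold above it, with log2 differences of 5.77 and 5.54 (limma, highest adjusted p over the settings 1.84e-08; 65.8% of genes were called higher than Cdh1). Cdh16 was listed at 0 in both libraries. Of 3 pairs of type II relatives compared, 2 differed and Cdh6 with Cdh10 did not pass (adjusted p = 0.1001). Cdh8 lay above Cdh11 (log2 of Cdh11 over Cdh8 -0.33 and -0.43, adjusted p = 0.000901), and Cdh7 far above Cdh20 (log2 of Cdh20 over Cdh7 -2.91 and -3.07). In transcripts with the principal coding sequence neither order held. Cdh11 stood at 28.3 TPM against 6.94 TPM for Cdh8, and Cdh20 at 0.905 TPM against 0.83 TPM for Cdh7. Cdh11 and Cdh20 have 1 annotated transcript each and could lose nothing on that count.

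Most catenins and cytoplasmic partners stood above the median of detected genes, 16.5 TPM. Pkp4 (13.4 TPM in replicate 2 and 14.2 TPM in replicate 1), Vcl (8.03 and 7.46 TPM) and Ctnna3 (0.18 and 0.32 TPM) did not. Of the 11 genes 10 were detected, against 34.3% of all 43346 genes, and Ctnna3 was the exception. The median of the 11 was 50.4 TPM. Ctnnb1, which encodes beta-catenin, stood at 437 TPM in replicate 2 and 431 TPM in replicate 1. It lay 7.80-fold above Jup, its relative plakoglobin (53.9 and 57.2 TPM; limma, adjusted p = 3e-08; 16.3% of genes higher than Jup). Afdn, an actin-binding junction protein, reached 128 and 129 TPM, and the delta-catenin relative Arvcf 84.8 and 80.7 TPM. Ctnna2, the neural alpha-catenin, stood at 107 and 102 TPM, 2.08-fold above the widespread Ctnna1 (48.9 and 51.8 TPM; adjusted p = 5.43e-07; 17.9% of genes higher than Ctnna1). Among delta-catenins the neural Ctnnd2 stood at 19.7 and 20.6 TPM, below the widespread Ctnnd1 at 29.95 and 25.1 TPM. The log2 ratio of Ctnnd2 over Ctnnd1 was -0.60 in replicate 2 and -0.28 in replicate 1 (adjusted p = 0.00126, with 35.1% of genes higher than Ctnnd2). This call was lost (adjusted p = 0.0699) when genes were set against Ctnnd1 instead, the highest of the values over the settings, which began at 0.00109. Of the 8 pairs compared by gene 7 passed, and Cdh6 with Cdh10 did not.

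Enzymes that act on cadherins were detected in 5 of 6 cases, against 34.3% of all 43346 genes, with a median of 6.53 TPM. Ncstn, of the gamma-secretase complex that cuts cadherin stumps in the membrane, stood at 100.8 TPM in replicate 2 and 103 TPM in replicate 1. The sheddase Adam10, which cuts N-cadherin outside the membrane, stood at 53.5 and 57.3 TPM, and Psen2, of the same complex as Ncstn, at 8.42 and 9.18 TPM. Pcsk5, a relative of the protease furin that removes the propeptide of cadherins, stood at 4.49 and 4.03 TPM, and its relative Pcsk6 was lowest at 0.59 and 0.43 TPM.

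**Figure D4:**
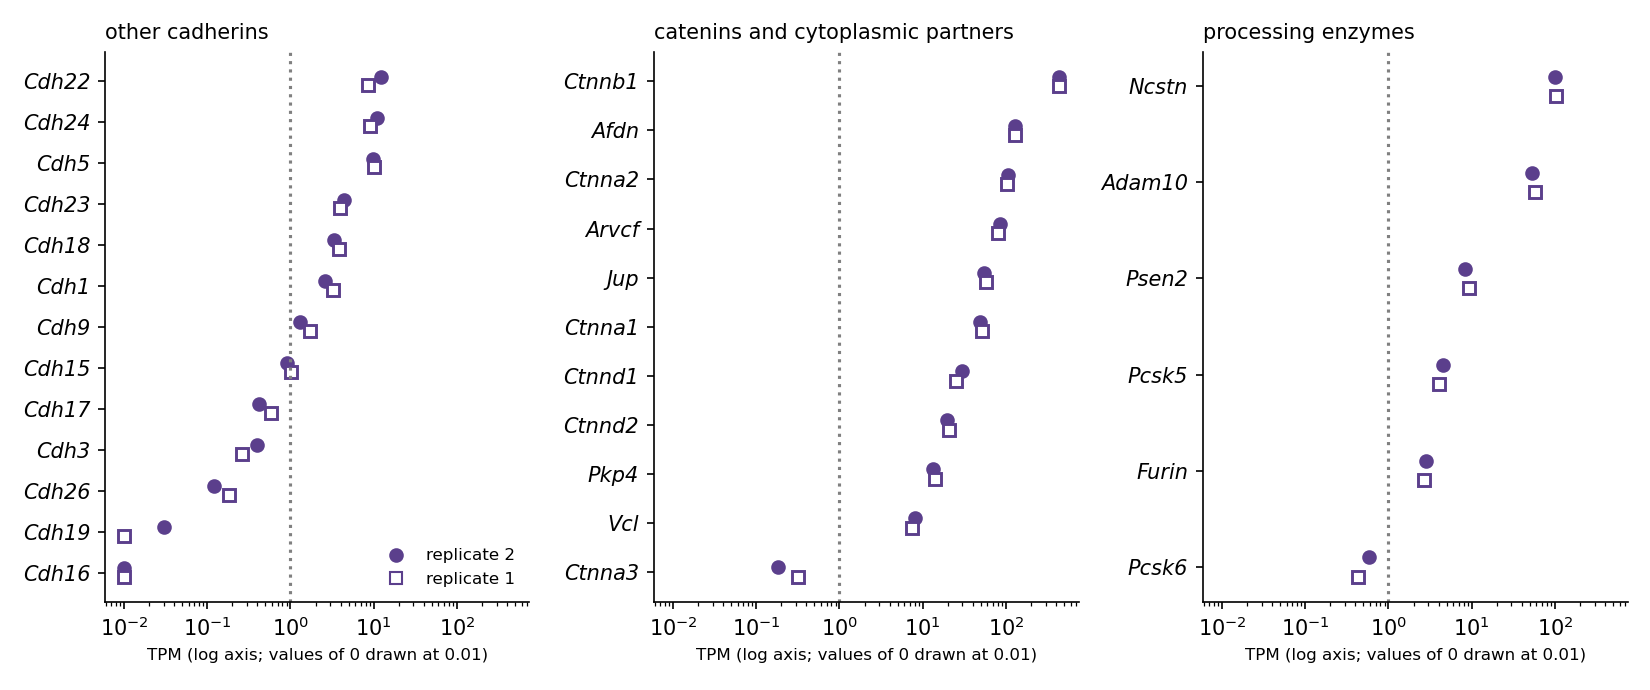
TPM on a log axis for 13 other cadherins, 11 catenins and cytoplasmic partners and 6 processing enzymes, with filled circles for replicate 2 and open squares for replicate 1; values of 0 are drawn at 0.01 and the dotted line marks 1 TPM. Most partners lie above 10 TPM, while the other cadherins lie at or below 12.3 TPM.

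Several of the genes are neighbours on their chromosomes, some at close and some at very different levels. On chromosome 15 the genes Cdh6 (13028701 to 13173675), Cdh9, Cdh10 (18818947 to 19014236), Cdh12 (20449265 to 21589533) and Cdh18 follow each other with 0 other protein-coding genes between them. Their levels in replicate 2 were 13.7, 1.29, 10.3, 1.75 and 3.36 TPM, and in replicate 1 they were 11.2, 1.71, 10.95, 1.54 and 3.79 TPM. On chromosome 8, Cdh8, Cdh11 (102632095 to 102785642) and Cdh5 follow each other in the same way. Cdh7 on chromosome 1 lies next to Cdh19 (0.03 and 0 TPM), and Cdh20 (104768529 to 104995481) lies 4.99 megabases away. Cdh13 (118283733 to 119324921) lies farther along chromosome 8, with 95 coding genes between it and Cdh1 on one side and 58 between it and Cdh15 on the other. Cdh4 is on chromosome 2 from 179442431 to 179899373 and Cdh2 on chromosome 18 from 16588877 to 16809246.

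The coding sequences follow the classes. Principal coding sequences were 65.1% identical between Cdh2 and Cdh4, and between 58.8% and 70.8% among the 21 pairs of the 7 type II genes. Cdh6 with Cdh10 was the closest type II pair, and Cdh8 with Cdh11 came next at 66.1%. Between type I and type II genes identity was 45.3% to 48.5%. Cdh13 reached 41.4% to 46.4% with the others, which is near the 42.0% to 44.7% that the same alignment gave with the unrelated Ctnnb1. The 45.3% at the low end between type I and type II genes is also near that level. With Cdh2 and with Cdh4, Cdh13 reached 46.4%. Cdh13 was the shortest, at 714 codons, against 785 to 801 in type II genes and 906 and 913 in Cdh2 and Cdh4.

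The promoters also varied. RefSeq promoter windows of 300 bases were matched for 6 of the genes, and the CG pair was counted on the plus strand, where it reads the same on the other strand. The median over 32851 windows was 7. Cdh8 had 21, and 24.8% of windows held as many or more. The 3 windows of Cdh7 had 18, 19 and 4, and those of Cdh20, Cdh12 and Cdh6 had 18, 9 and 8. Cdh10 had 2, and 85.9% of windows held as many or more. A count of this kind is a description of the sequence, and no level was tested against it.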

How the data were processed

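Total RNA-seq of 1 group of 2 libraries was used as deposited. The authors deposited, for each library, tables of expected counts (estimated reads per gene or transcript), TPM, FPKM and the percent of a gene's abundance per transcript, on mm10 with GENCODE M4, per the text deposited with each library. Spike-ins took 9.39% of the deposited TPM in replicate 2 and 5.36% in replicate 1. The aligner, counter and strand setting were not given in the sources used here. Symbols, positions, transcript types and coding sequences came from GENCODE M21 (GRCm38), which matched 42462 of 43346 gene identifiers and all 42 transcripts of the family.

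Levels are the deposited TPM with mean and SD over 2 libraries. The labels give the libraries separate biosample entries and 1 donor entry, so the spread may be partly technical. Levels of genes were compared with limma 3.58.1 (R 4.3.3) on within-library differences of log2(TPM + 0.1), for genes with a mean expected count of at least 10, with a variance trend, two-sided, and Benjamini-Hochberg adjustment over all genes. On this scale the fold of a low gene is too small. Ratios between libraries used expected counts rounded to whole numbers, plus 0.5, after TMM scaling (edgeR 4.0.16), with Clopper-Pearson 95% intervals. The procedures were also run on simulated counts, with a fixed spread and without the marker differences between these libraries. That run does not test the calls made here. Coding sequences were aligned globally with Biopython 1.88 (match 5, mismatch -4, gap -10 and -0.5), and identity is over all columns. A comparison of proteins had been planned and coding bases were used in its place.

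The members and lists were chosen with earlier results of these data known. The text names all members, the 4 highest and the lowest of each list, the genes of 8 set pairs and members of counts of 5 or fewer. Cdh9, Cdh18 and Cdh19, outside this rule, are named for their position, and Otx2, En1, Hoxa2, Atoh1, Pax2 and Lmx1a as markers, after their values were seen. Alternatives were other pseudocounts, count minimums, TPM limits, FPKM, posterior means, DESeq2 1.42.0 size factors, library totals and each library alone. 1 gene of the planned list of enzymes is not reported here.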

Additional observations from a re-analysis of the deposited data

How the results depend on the processing

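The calls rested little on the settings tried. The 6 steps stayed 6 of 9 under all 8 alternatives, and the fixed pairs stayed 7 of 8 except with the higher gene as the one set against, where Ctnnd2 with Ctnnd1 dropped out. The count past 2-fold stayed 0 of 10 under size factors from DESeq2, totals of the libraries, a ratio of TPM + 0.1, a 1.5-fold rule and lower count minimums. The share of Cdh2 was 47.4% ± 1.97, from 46.0% to 48.8% in the single libraries, and 30.3% when only the principal coding sequences were counted; the larger part of Cdh2 TPM lay in its other coding transcript. Members detected were 9, with 10 at a limit of 0.5 TPM and 8 at 2 TPM. No called step or pair changed sign in these tests or in a single library. Steps that were not called did: Cdh13 over Cdh8 was -0.03 in replicate 1 and Cdh4 over Cdh11 was -0.01 in replicate 2. Counting only the principal coding sequences turned round Cdh11 with Cdh8 (28.3 and 6.94 TPM) and Cdh8 with Cdh4 (6.94 and 28.3). It also turned round Cdh7 with Cdh12 (0.83 and 1.65) and Cdh20 with Cdh7 (0.905 and 0.83, within the spread). Of these genes Cdh11, Cdh12 and Cdh20 have 1 annotated transcript each, so only the gene set against them could fall. Genes were compared within each library, but no pairing of libraries between groups was possible because both lie within 1 group. Depth limits Cdh20 and Cdh12, and the number of libraries limits every comparison of levels.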
